A study of Mus musculus with 24 samples.

Results

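Replication-dependent histone genes supply the histone proteins that package newly made DNA, and the 66 of them found here are the rows of the authors' deposited tables whose symbol starts with Hist1h, Hist2h, Hist3h or Hist4h. They are 66 of the 20625 gene symbols in either table: 65 are in the table of control cells, 66 are in the table of paused cells, and Hist1h1t is in the paused table alone. By symbol, 6 are genes of the linker histone H1, 17 of H2A, 18 of H2B, 12 of H3 and 13 of H4. In the GENCODE annotation of GRCm38 (mm10), 54 of them lie on chromosome 13 (the Hist1 genes), 10 on chromosome 3 (Hist2), 1 on chromosome 11 (Hist3) and 1 on chromosome 6 (Hist4). The annotation makes Hist1h2al, which stands apart from the Hist1 cluster on the same chromosome, a processed pseudogene, and the 65 other genes, 16 of them H2A genes, protein-coding.

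Poly(A) RNA was sequenced from E14 cells, an established mouse embryonic stem cell line grown on gelatin in serum with leukaemia inhibitory factor. The genotypes were wild type (WT) and 2 knockout lines named Smad2_KO1 and Smad2_KO2, labelled as knockouts of Smad2, a transcription factor activated by receptors for Nodal and activin. Each genotype was grown as control or was paused for 12 h with 200 nM INK128, which blocks the growth kinase mTOR, which gave 6 groups of 4 libraries. The labels do not say how the lines were made or whether each is a clone, and nothing says that the 4 libraries of a group came from separate cultures, so p-values may measure technical spread only.

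The values are the authors' own, in 1 table for control and 1 for paused cells. Each table gives a gene's mean normalized read count over its libraries, the log2 change between genotypes with its standard error (SE), and a p-value with its adjusted p. The tables hold no value per library, so no level per sample can be shown, and the depth of each library is unknown. They do not name the numerator of the change. Here it is taken to be knockout over wild type, since the change of Smad2 itself was negative in both of the authors' deposited tables, -0.35 (SE 0.07) in control and -0.63 (SE 0.06) in paused cells. That is 0.79-fold and 0.65-fold, so most Smad2 RNA was still counted; which part of the gene is deleted is not given in the sources used here. Embryonic stem cell markers were all present, with 12 of 12 genes at control means from 8797 to 51710; with an adjusted p under 0.05, 3 of 12 were higher and 3 lower in the knockouts in control cells, and 3 higher and 2 lower in paused cells. By the same rule 19.5% of all genes were higher and 21.9% lower in the control table, against 20.5% and 22% in the paused table, so the stem cell marker counts are near those shares. In the other marker lists, to be read against the same shares, 6 of 7 primitive endoderm genes were higher in the knockouts in both tables (22.3 ppm of summed mean counts in control and 40.7 ppm in paused cells), 6 of 7 two-cell-like genes in control and 5 of 7 in paused cells were higher (1351 and 505 ppm), and 4 of 6 embryonic fibroblast genes in control and 3 of 5 in paused cells were lower (17.8 and 18.0 ppm). In 6 trophoblast genes 2 were higher and 2 lower in control, and 2 were higher and 1 lower in paused cells. The part of these markers in the histone results was not tested.

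Most mRNAs end in a poly(A) tail. Messages of the histone clusters are the known exception: they are cut after a short conserved stem-loop, carry no tail in dividing cells, and are made and destroyed with S phase. The stem-loop is bound by SLBP, and cutting needs the U7 particle. Some cluster genes can also make longer, polyadenylated transcripts from a signal further downstream, and a library made from poly(A) RNA captures those forms. All levels here come from such libraries and are read as levels of polyadenylated histone RNA. Whether each counted RNA had a tail was not measured. In bulk RNA, fewer cells of a type and less RNA per cell cannot be told apart.

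The stem-loop was searched in annotated transcripts because it marks the ordinary, tailless 3′ end of these messages. The motif searched was 16 bases on the transcript strand, GGNNCT then TNTN then AGNNCC, with the free stem bases required to pair. It was found in transcripts of 45 of the 66 members and in 16 of 55275 other genes (0.0289%). The sequences below are those of some of the members described in the results, read 5′ to 3′ from GENCODE transcripts on GRCm38, with the loop in capitals.
Hist1h2ao (chr13:21810898-21810913, plus strand): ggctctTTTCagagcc
Hist1h2bg (chr13:23571843-23571858, plus strand): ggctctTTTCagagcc
Hist1h2be (chr13:23585531-23585546, minus strand): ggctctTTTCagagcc
Hist1h1c (chr13:23739512-23739527, plus strand): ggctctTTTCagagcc
Hist1h3e (chr13:23561903-23561918, minus strand): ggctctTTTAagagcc
Hist1h4f (chr13:23551291-23551306, minus strand): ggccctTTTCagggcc
Hist1h4j (chr13:21735437-21735452, plus strand): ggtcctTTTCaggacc
Hist1h4i (chr13:22040966-22040981, minus strand): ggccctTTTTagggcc
Hist1h2ao, Hist1h2bg, Hist1h2be and Hist1h1c share the most common form, which 25 members carry, and Hist1h3e has a form with another last loop base that 6 carry. The H4 genes shown have other forms: that of Hist1h4f is in 7 members, that of Hist1h4j, with another stem, in 2, and that of Hist1h4i, with the stem of Hist1h4f and another last loop base, in 2. By class, the motif was in 4 of 6 H1, 10 of 17 H2A, 10 of 18 H2B, 9 of 12 H3 and 12 of 13 H4 genes. Some gene models are short at the 3′ end, so a missing match says only that these letters are absent from the annotated transcripts.

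A poly(A) signal, AATAAA or ATTAAA within the last 50 bases of an annotated transcript, was found for 16 members, against 43.98% of other genes, and 13 members had both features. The signal was in 2 of 6 H1, 1 of 17 H2A, 6 of 18 H2B, 1 of 12 H3 and 6 of 13 H4 genes. Transcripts with several exons were annotated for 5 members, all of H2B: Hist1h2bc, Hist1h2be, Hist1h2bp, Hist1h2bq and Hist1h2br.

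Most of the counts given to the members were given to H2A genes. In the authors' deposited control table the 65 members summed to 734 ppm of all mean counts, of which the 17 H2A genes made 89.9%, and in the paused table to 630 ppm, of which they made 87.6%. Per kilobase of annotated exon, the median mean count of the H2A genes was 3100 in control cells, against 92.3 for H2B, 93.1 for H3, 89.2 for H4 and 28.7 for H1. In paused cells the same medians were 2462, 73.9, 74.7, 103.2 and 27.0. The counts of H2A genes therefore stood far above those of the other 4 classes, whose medians were within a few-fold of each other. No spread over libraries is available to test these gaps, and reads of genes on the opposite strand may be among the H2A counts.

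**Figure D1:**
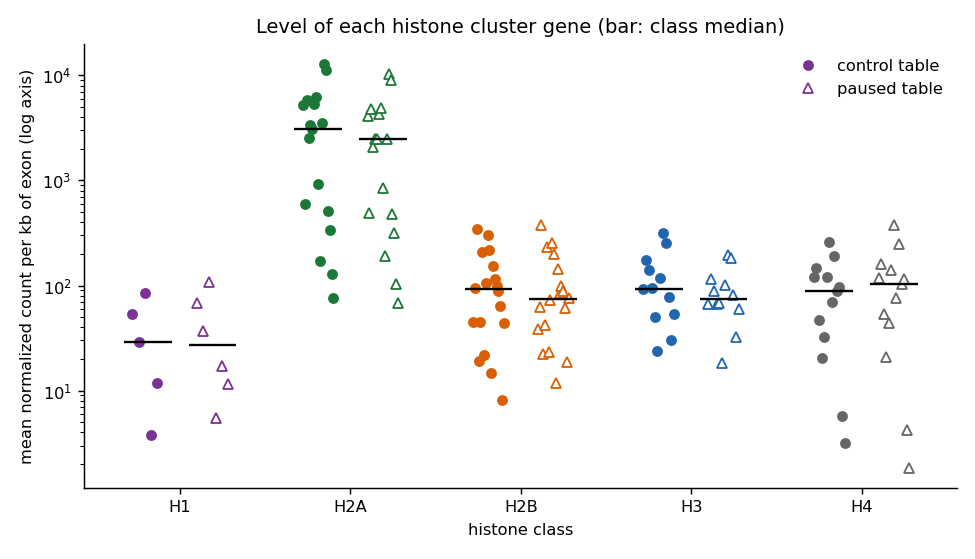
Mean normalized read count per kilobase of annotated exon (log axis) for each histone cluster gene, by class, in the control table (filled circles) and the paused table (open triangles), with a bar at the class median. H2A genes reach 12782 in control cells, while no gene of another class exceeds 348 in control or 380 in paused cells.

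Most H2A counts were assigned to 11 Hist1 genes, each with a control mean of at least 1000 normalized counts, a threshold set after the values were seen. They made 87.0% of all member counts in control and 84.2% in paused cells. Per kilobase they ranged from 601 (Hist1h2ac) to 12782 (Hist1h2ao) in control cells and from 490 to 10365 in paused cells. Outside H2A the highest member was Hist1h2bc in control cells, at 348 per kilobase, and Hist1h4i in paused cells, at 380. Hist1h2ao lies at chr13:21810465-21810944 on the plus strand, and its mean normalized count was 6135 in the authors' deposited control table and 4975 in the paused table. Each of the 17 H2A genes overlaps an annotated gene on the opposite strand, against 0 of 6 H1, 1 of 18 H2B, 1 of 12 H3 and 1 of 13 H4 genes. The library kit keeps strand, but whether counting used it is not given in the sources used here. Whether reads of an H2A gene and of its partner were kept apart is therefore not known.

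These genes are near-copies of each other. Of the 50-base words in the transcripts of Hist1h2ao, 6.50% occur in no other gene, and over the 11 abundant H2A genes that share ran from 6.50% to 85.9%. At least 50% of the words were unique in 33 of the 66 members. Hist2h2aa2 and Hist2h3c1 had no unique word, so their counts depend wholly on how shared reads were assigned. The split of counts among such genes is uncertain.

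In control cells the knockout lines had small rises of 3 H2B genes, 1 H4 gene and 1 H1 gene and no called change of any H2A gene. In the authors' deposited control table, 6 of 65 members (9.23%) had an adjusted p under 0.05 (DESeq2 with Benjamini-Hochberg adjustment over all genes, here termed called), against 41.4% of all 19778 genes tested. Higher in the knockouts were 5, against a background of 19.5%, and lower was 1, against 21.9%. Over all 65 members the median log2 change was 0.13, with 49 positive, while over all genes the median was 0.00085 and 50.1% were positive. The members are measured less tightly than most genes: their median SE was 0.19, against 0.11 over all genes. The part of this wider error in the low share of calls was not tested over the list. With a minimum level of 5 ppm of all mean counts, 1 of 14 members was called, against 50% of such genes. With at least a 2-fold change required, 0 of 65 were called, against 6.98%.

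Of 18 genes of H2B, a core histone that pairs with H2A, 3 rose (16.7%), a share below the 19.5% of all genes called higher. Hist1h2bg (chr13:23571396-23572013, plus strand, 1 exon) had a mean normalized count of 129 and was 1.62-fold higher (95% interval 1.36 to 1.94, adjusted p = 9.55e-07) in the authors' deposited control table. Hist1h2bc (chr13:23684199-23692908, plus strand, 2 exons) was the most abundant of them, with a mean of 402 and a 1.53-fold rise (1.37 to 1.69, adjusted p = 1.24e-13) in the authors' deposited table. Hist1h2be (chr13:23583670-23621124, minus strand) had a mean of 84.7 and rose 1.57-fold (1.28 to 1.92, adjusted p = 7.6e-05) in the authors' deposited table. Its annotated span overlaps part of Hist1h1e (chr13:23620629-23622558) on the same strand, so reads of the stretch they share may not be separable. All 3 intervals lie above 1 and overlap each other.

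Outside H2B, Hist1h4i (chr13:22040636-22041362, minus strand), an H4 gene with a mean of 189, rose 1.32-fold (1.12 to 1.55, adjusted p = 0.00288) in the authors' deposited table. Hist1h1c (chr13:23738808-23740367, plus strand), which codes for a linker histone made in many cell types, had a mean of 132 and rose 1.23-fold (1.06 to 1.43, adjusted p = 0.0187). The 1 gene that fell was Hist1h3e (chr13:23561534-23562369, minus strand), an H3 gene with a mean of 41.5, at 0.64-fold (0.50 to 0.83, adjusted p = 0.00259). Only 26.6% of the 50-base words of Hist1h3e are unique, against 71.1% for Hist1h4i and 91.5% for Hist1h1c.

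**Figure D2:**
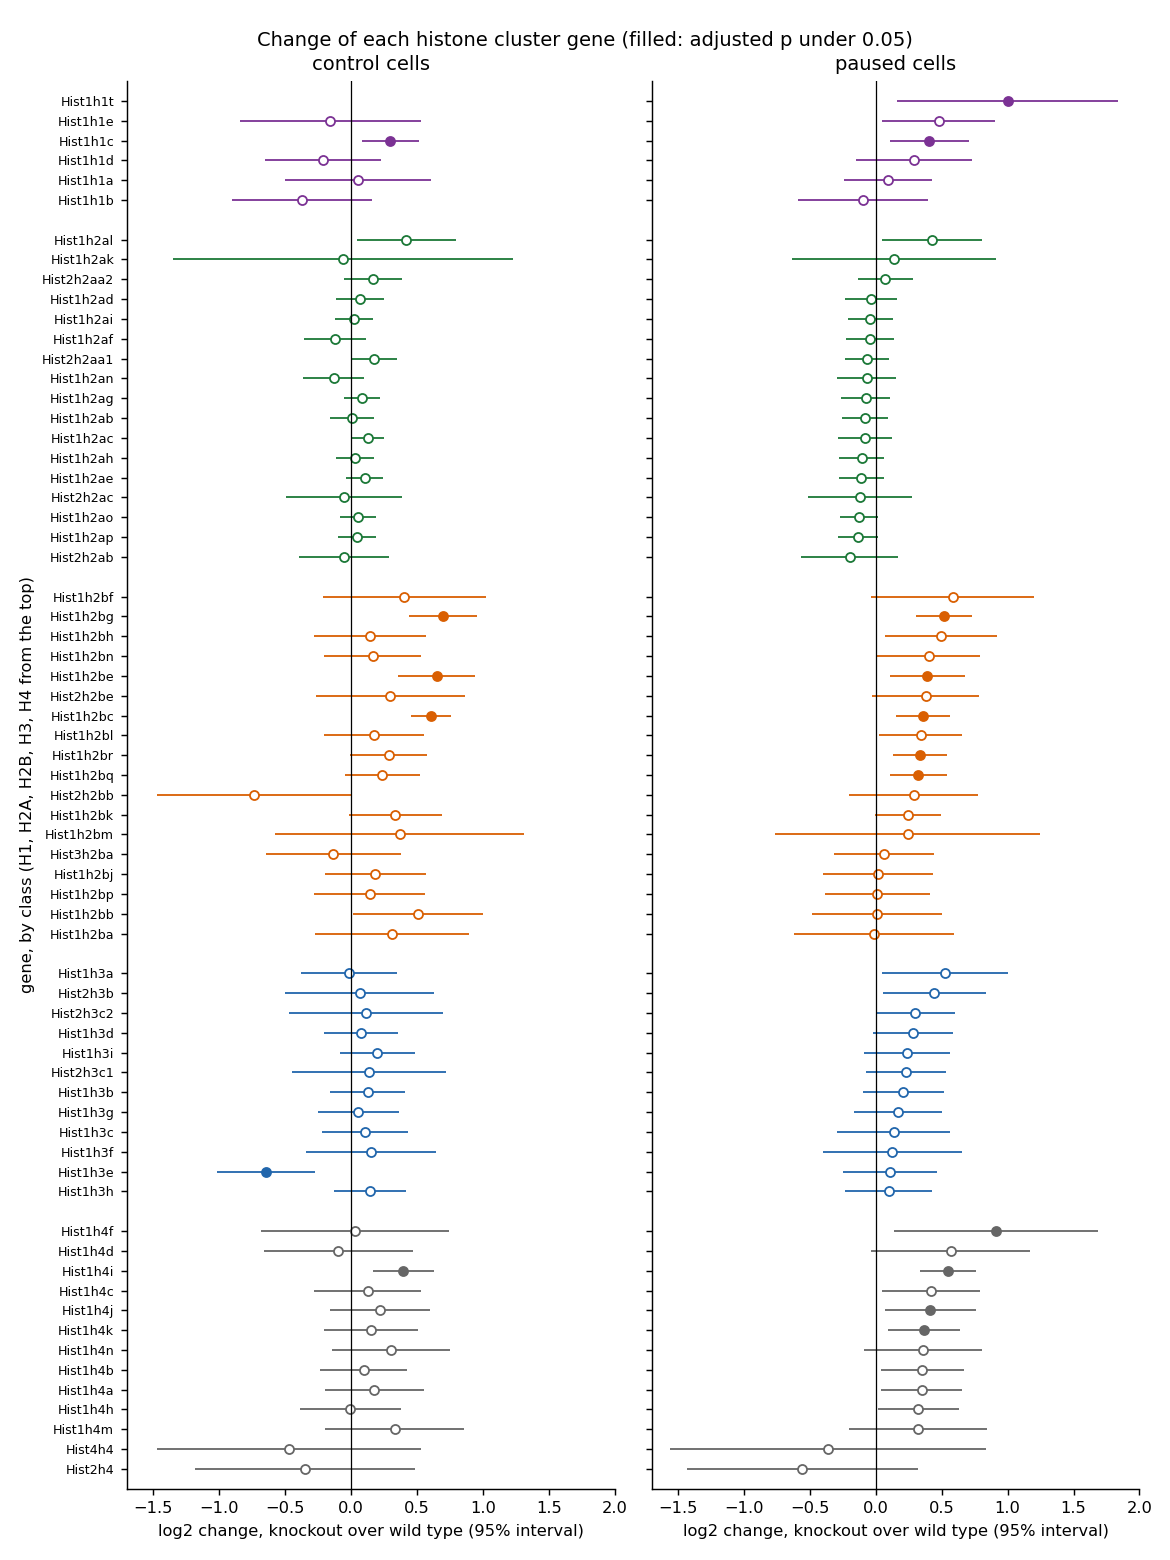
Log2 change, knockout over wild type, with its 95% interval for each of the 66 histone cluster genes in control (left) and paused cells (right), grouped by class; filled points have an adjusted p under 0.05. In control cells 5 filled points lie to the right and 1 to the left, and in paused cells all 11 lie to the right, while no H2A point is filled.

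In paused cells more members were called at an adjusted p under 0.05, again without any H2A gene. The order turned at an adjusted p under 0.01, with 5 in control (30.9% of all genes) and 4 in paused cells (32.3%). It also turned against a null of up to 1.2-fold, with 2 and 0 (10.6% of all genes in each). The difference in counts was not tested. In the authors' deposited paused table, 11 of 66 members (16.7%) were called, all higher in the knockouts, against 42.6% of 19979 genes, 20.5% higher and 22% lower. The median log2 change of the members was 0.24, with 48 of 66 positive, against -0.0016 and 49.8% over all genes. Median SEs were 0.17 and 0.10. No member changed by at least 2-fold with an adjusted p under 0.05, against 7.1% of all genes. Hist1h1t, at 1.9995-fold, lay just below that limit. With the 5 ppm minimum, 2 of 15 were called, against 51.6% of such genes, and the median log2 change of these 15, of which 13 are H2A genes, was -0.07.

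Of the 18 H2B genes 5 were called (27.8%), all higher, against 42.6% of all genes called and 20.5% called higher. In the authors' deposited paused table, Hist1h2bg rose 1.43-fold (95% interval 1.23 to 1.66, adjusted p = 1.56e-05) at a mean of 145. Hist1h2be rose 1.31-fold (1.08 to 1.60, adjusted p = 0.0204) and Hist1h2bc 1.28-fold (1.11 to 1.48, adjusted p = 0.00213, mean 436). Hist1h2br (chr13:21833743-21837530, plus strand) and Hist1h2bq (chr13:21806612-21810197, minus strand) rose 1.26-fold (adjusted p = 0.00499) and 1.25-fold (adjusted p = 0.0112), each at a mean of 198 to 199 normalized counts. These 2 genes share nearly all of their sequence, with 11.3% and 2.68% of words unique, and are close to 1 measurement. Hist1h2bq was the 11th by size of change and was named after its values were seen.

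Of the 13 genes of H4, the core histone that pairs with H3, 4 were called (30.8%), all higher, against the same 42.6% and 20.5% of all genes. After recentring on the median of genes above 5 ppm, 8 of 13 were called higher, against 24.9% of all genes. With the summed counts of the genotypes made equal there were 7 of 13, against 23.7%. Here and below, equal summed counts assume that each mean pooled 4 wild-type and 8 knockout libraries, which the sources used here do not give. Hist1h4i rose 1.46-fold (95% interval 1.26 to 1.70, adjusted p = 4.58e-06) in the authors' deposited paused table, at a mean of 276. Hist1h4j (chr13:21735064-21735837, plus strand) rose 1.33-fold (adjusted p = 0.0446) and Hist1h4k (chr13:21750194-21750505, minus strand) 1.29-fold (adjusted p = 0.0234). Hist1h4f (chr13:23551258-23551648, minus strand) had a 1.88-fold rise with a wide interval, 1.10 to 3.22 (adjusted p = 0.0492), at a mean of 17.4.

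Among linker histones, Hist1h1c rose 1.32-fold (1.08 to 1.63, adjusted p = 0.0225) in the authors' deposited paused table. Hist1h1t (chr13:23695814-23696725, plus strand), the linker histone known from spermatocytes, was 2.00-fold higher (1.12 to 3.58, adjusted p = 0.0471) at a mean of only 10.4. No H3 gene was called in paused cells, although all 12 changes were positive. This depends on the scaling: 2 of 12 were called higher after recentring (24.9% of all genes) and 1 of 12 with equal summed counts (23.7%). Hist1h3e, which was lower in control cells, had a log2 change of 0.11 (SE 0.18, adjusted p = 0.66).

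By class, the median log2 change in control and in paused cells was 0.29 and 0.33 for H2B, 0.13 and 0.36 for H4, 0.11 and 0.22 for H3, -0.16 and 0.35 for H1, and 0.05 and -0.08 for H2A. Positive changes were found in 16 and 17 of 18 H2B genes, 9 and 11 of 13 H4 genes, 10 and 12 of 12 H3 genes, 2 of 5 and 5 of 6 H1 genes, and 12 and 3 of 17 H2A genes. Recentring the changes on the median of genes above 5 ppm, or equalising the summed counts of the genotypes, shifted all changes upwards by 0.04 to 0.06 and left the sign of each class median as it was. Such a shift also raises the upward calls of genes at large: 23.9% of all genes were called higher in control and 24.9% in paused cells after recentring, and 24.1% and 23.7% with equal summed counts. Under both scalings 3 of 17 H2A genes passed the threshold upwards in control cells, Hist1h2ac, Hist1h2al and Hist2h2aa1, and 1 of 17 in paused cells, both below those shares. The paused count of members, all higher, went from 11 to 21 of 66 after recentring and to 19 of 66 with equal summed counts. Members of a class share sequence, so these counts are not of independent measurements.

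None of the 11 abundant Hist1 H2A genes was called, against 41.4% of all genes in control and 42.6% in paused cells, and each had an SE below the median SE of the members in both tables. Their SE ran from 0.06 to 0.12 in control and 0.07 to 0.11 in paused cells, and their log2 changes from -0.13 (Hist1h2an) to 0.13 (Hist1h2ac) in the authors' deposited control table. In paused cells all 11 changes were slightly negative, from -0.13 (Hist1h2ap) to -0.04 (Hist1h2ad), a sign that depends on the scaling, since 3 of the 11 were positive after recentring on genes above 5 ppm. At an unadjusted p under 0.05 there were 1 of 11 in control and 0 of 11 in paused cells, against 48.1% and 48.7% of all genes. Their 95% intervals reached at most from a fall of 22.3% to a rise of 19.1% in control cells, and from a fall of 18.2% to a rise of 11.7% in paused cells.

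Histone genes often stand in head-to-head pairs that share the stretch between their start sites. Among members, 12 such pairs had starts within 1000 bases, of which 11 joined an H2A to an H2B gene 176 to 302 bases apart. In both tables the H2B change lay above that of its H2A partner in 11 of 11 pairs, and the H2A mean count was above that of H2B in 11 pairs in control and 10 in paused cells, where Hist2h2be, at 49.0, was above Hist2h2ac, at 35.3. Of the 11 H2B genes 2 were called in control and 4 in paused cells, and of the 11 H2A genes 0 in either, against 41.4% and 42.6% of all genes. Hist1h2bg, with a log2 change of 0.70 in control and 0.52 in paused cells, faces Hist1h2ae, which had 0.10 and -0.11. Hist1h2bc, with 0.61 and 0.36, faces Hist1h2ac, which had 0.13 and -0.08. The difference within a pair was not tested, since the covariance of the deposited changes is not known, and genes of different pairs share sequence.

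**Figure D3:**
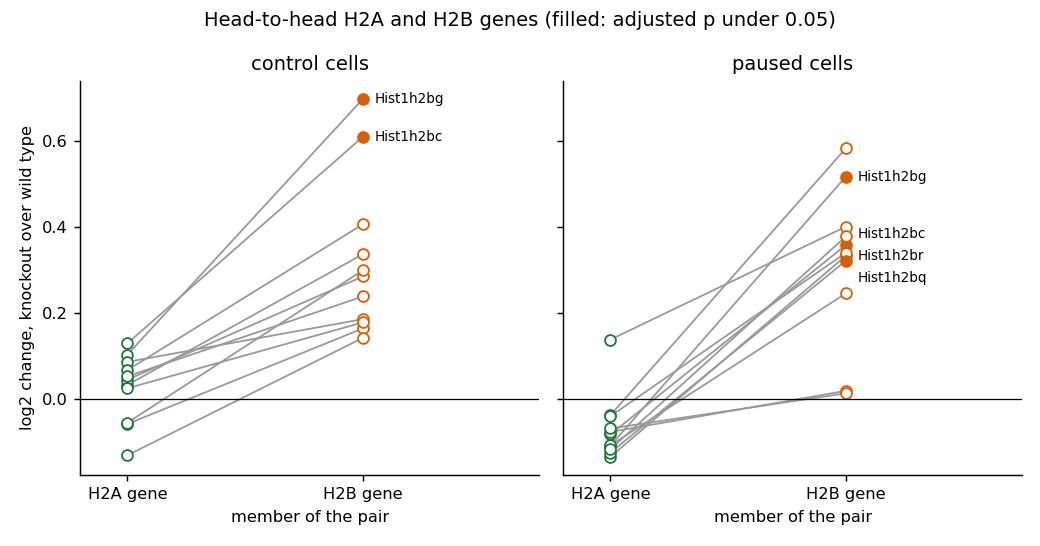
Log2 change, knockout over wild type, of the H2A gene (green) and the H2B gene (orange) of 11 head-to-head pairs, joined by a line, in control and paused cells; filled points have an adjusted p under 0.05 and are labelled. All 11 lines slope upwards from H2A to H2B in both conditions, and only H2B points are filled.

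The promoter windows of these 2 pairs are shown because each holds the whole stretch between an H2B gene that rose in both conditions and an H2A partner that was not called, and that of Hist1h4i because it is the H4 gene called in both. They run from 250 bases before to 50 after the start, from RefSeq on GRCm38.p6, written 5′ to 3′ along the strand of the named gene. Capitals mark the octamer ATTTGCAT, which POU-domain factors bind, the CCAAT box and TATAAA, each on either strand.
Hist1h2bg (chr13:23571150-23571449, plus strand): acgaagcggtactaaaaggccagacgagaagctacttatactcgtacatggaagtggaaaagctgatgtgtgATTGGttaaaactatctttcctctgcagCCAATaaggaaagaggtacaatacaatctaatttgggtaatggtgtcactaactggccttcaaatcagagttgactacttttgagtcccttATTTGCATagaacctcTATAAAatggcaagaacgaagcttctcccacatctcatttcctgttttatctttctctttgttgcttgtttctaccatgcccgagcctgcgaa
Hist1h2ac (chr13:23683910-23684209, minus strand): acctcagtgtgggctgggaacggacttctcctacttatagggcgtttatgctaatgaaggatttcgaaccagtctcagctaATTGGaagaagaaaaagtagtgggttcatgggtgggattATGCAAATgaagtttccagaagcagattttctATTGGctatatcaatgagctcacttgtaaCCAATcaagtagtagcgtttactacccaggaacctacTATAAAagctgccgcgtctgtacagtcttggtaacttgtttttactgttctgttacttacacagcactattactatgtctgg
Hist1h4i (chr13:22041313-22041612, minus strand): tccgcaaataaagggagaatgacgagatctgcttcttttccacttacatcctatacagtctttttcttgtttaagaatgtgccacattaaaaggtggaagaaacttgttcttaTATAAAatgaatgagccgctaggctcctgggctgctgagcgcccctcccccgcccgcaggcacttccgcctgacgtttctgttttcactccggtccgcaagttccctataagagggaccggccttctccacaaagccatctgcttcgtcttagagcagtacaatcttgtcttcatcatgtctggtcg
The Hist1h2bg window holds 1 octamer, 2 CCAAT boxes and TATAAA, the Hist1h2ac window 1 octamer, 3 CCAAT boxes and TATAAA, and the Hist1h4i window TATAAA alone. A window was listed for 60 of the 66 members. Hist1h2be has 2 listed windows, of which 1 holds the octamer, and a gene is counted here if any of its windows holds the motif. The octamer was in 12 of 60 genes, 5 of 16 H2A and 7 of 16 H2B genes, against 1.74% of all 32851 windows of this length. CCAAT was in 51 of 60, that is in every H1, H2A, H2B and H3 gene with a window and in 3 of 12 H4 genes, against 37.4% of all windows. TATAAA was in 34 of 60, against 13.6%. The windows of Hist1h2bq and Hist1h2br are identical over their 300 bases. A match is a description and no evidence of binding.

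Of the 12 members called in either table, all on chromosome 13, 8 carry the stem-loop motif, 7 a poly(A) signal at a transcript end, and 2, Hist1h2bc and Hist1h4k, neither; of all 66 members, 45 carry the motif and 16 the signal. Of members with a poly(A) signal, 3 of 15 (20%) were called in control and 7 of 16 (43.8%) in paused cells, against 41.4% and 42.6% of all genes. All of these calls were higher in the knockouts, against 19.5% and 20.5% of all genes called higher. The paused share is thus near that of all calls and above that of upward calls. Of members without one, 3 of 50 (6%) were called in control cells and 4 of 50 (8%) in paused cells. The 5 genes with several exons gave 2 calls (40%) in control and 4 (80%) in paused cells, all higher. Over all genes 41.4% and 42.6% were called, and 19.5% and 20.5% were called higher. These are counts only: the genes in each group share sequence and differ in level.

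**Figure D4:**
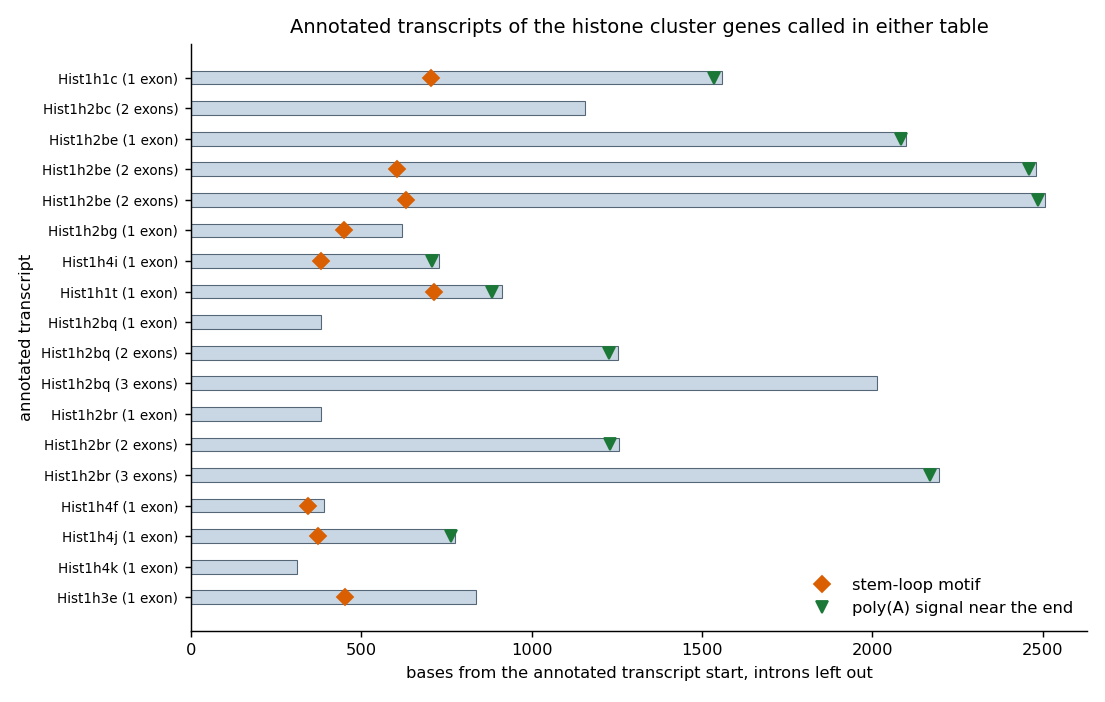
Annotated transcripts of the 12 histone cluster genes called in either table, drawn to scale in bases from the transcript start with introns left out, with the stem-loop motif (diamond) and a poly(A) signal near the end (triangle). In Hist1h4i and Hist1h1c the transcript runs on past the stem-loop by 330 and 840 bases to an end that has a poly(A) signal. Transcripts of Hist1h2be, Hist1h4j and Hist1h1t also run from a stem-loop to such an end.

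Among the called members, Hist1h4i, Hist1h1c, Hist1h2be, Hist1h4j and Hist1h1t have the stem-loop and a poly(A) signal in the same annotated transcript. That of Hist1h4i is 727 bases long, has its stem-loop from base 382 and ends 330 bases after it. That of Hist1h1c is 1560 bases long and ends 840 bases after its stem-loop. Hist1h2bg has 155 bases after the stem-loop and no poly(A) signal near its annotated end.

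The change in control cells and that in paused cells came from distinct libraries, and for no histone cluster gene was a difference between them called. Of 65 members in both tables, 0 had an adjusted p under 0.05 for the difference, against 1.44% of 19134 genes (0.716% higher and 0.721% lower in paused than in control cells), with a normal test on the paused minus the control change adjusted over all genes. At an unadjusted p under 0.05 there were 3, against 12.9% of all genes. With the 5 ppm minimum on the average level, 0 of 15 were called, against 2.14%. Hist1h3e had a difference of 0.75 (SE 0.26, adjusted p = 0.12 over all genes), with paused above control. Hist2h2bb had 1.02 (SE 0.45, adjusted p = 0.29) and Hist2h2aa1 had -0.24 (SE 0.12, adjusted p = 0.38). The median SE of a member's difference was 0.26, against 0.14 over all genes, and the 95% intervals of the members' differences reached from -1.50 to 1.94, so the precision for many single members is low.

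Called in both tables were 5 genes, Hist1h1c, Hist1h2bc, Hist1h2be, Hist1h2bg and Hist1h4i, all higher in the knockouts in both. They are 83.3% of the members' control calls and 45.5% of their paused calls. Over all genes, the 5823 called in both tables are 71.1% of control calls and 68.5% of paused calls, and 99.5% of them have the same direction in both. For them the difference between conditions was 0.11 for Hist1h1c (95% interval -0.26 to 0.48), -0.25 for Hist1h2bc (-0.50 to 0.0021), -0.26 for Hist1h2be (-0.67 to 0.15), -0.18 for Hist1h2bg (-0.51 to 0.15) and 0.15 for Hist1h4i (-0.17 to 0.47). Over the 65 members the control and paused changes had a Pearson r of 0.39 and a Spearman rho of 0.42, with the same sign in 45, given as a description across genes that share sequence and depth.

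Mean levels in the 2 tables were also set side by side, as ppm of each table's summed mean counts. The tables were normalized separately and give no error for a mean, so this carries no test, and each mean pools genotypes. The summed level of the 17 H2A genes was 660 ppm in the control and 552 ppm in the paused table, a ratio of 0.84, and 16 of the 17 were lower in the paused table. H3 genes summed to 19.1 and 15.7 ppm, with 8 of 12 lower. H2B summed to 35.4 and 37.3 ppm, with 10 of 18 lower. H4 went the other way, at 14.2 and 17.9 ppm with 2 of 13 lower, and so did H1, at 5.30 and 7.24 ppm over the 5 genes in both tables with 0 of 5 lower. Of all genes shared by the tables, 43.3% were lower in the paused table and the median ratio was 1.06.

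**Figure D5:**
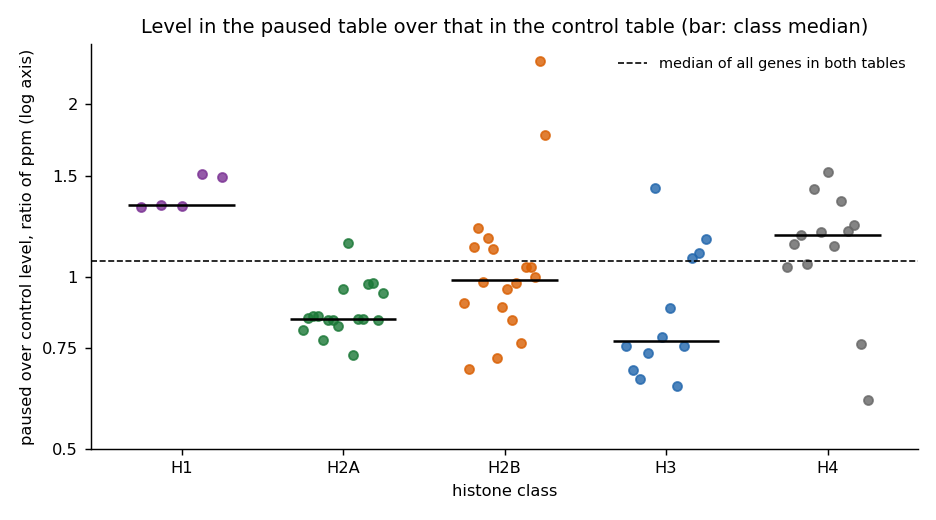
Ratio of a gene's level in the paused table to that in the control table (ppm of summed mean counts, log axis) for the 65 histone cluster genes in both, by class, with a bar at the class median and a dashed line at the median of all genes, 1.06. H2A and H3 medians lie below 1, at 0.84 and 0.77, and H1 and H4 medians above it, at 1.33 and 1.18.

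The largest ratio was that of Hist2h2be, an H2B gene on chromosome 3 with no shared 50-base word, at 2.38, from a mean of 21.4 to 49.0 normalized counts. Hist1h4i was at 1.52, from 189 to 276. The lowest were Hist4h4 at 0.61, from 9.04 to 5.30, and Hist1h3h at 0.64, from 130 to 80.1. Ratios of the 17 H2A genes ran from 0.73 (Hist1h2an) to 1.15 (Hist1h2al), with Hist1h2ao at 0.84.

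The list for histone mRNA 3′ end processing holds dedicated factors, such as Slbp and Lsm11, and general ones, such as the cap-binding genes Ncbp1 and Ncbp2. More of its genes fell than rose. By the authors' deposited tables, 0 of 19 rose and 12 fell in control cells, and 1 rose and 10 fell in paused cells, against the backgrounds of 19.5% higher and 21.9% lower in control and 20.5% and 22% in paused cells. After recentring on genes above 5 ppm the counts were 2 rising and 8 falling in control and 2 and 3 in paused cells, so the split depends on the scaling. The recentred shares of all genes, against which this and each later recentred count is to be read, were 23.9% higher and 15.9% lower in control and 24.9% and 16% in paused cells. Slbp, which codes for the stem-loop binding protein, had a log2 change of -0.36 (SE 0.08) in control and -0.12 (SE 0.05) in paused cells, called in both. Lsm11, part of the U7 particle, had -0.23 and -0.13, called in both. Lsm10, its partner, had -0.03 in control and -0.20 in paused cells, called in the latter. Cpsf2, a subunit of the cleavage complex, had -0.23 and -0.15, and Ncbp1 and Ncbp2, which bind the cap, both had -0.21 in control and -0.11 and -0.31 in paused cells, all called. The gene that rose in paused cells was Zfp473, which codes for a zinc finger protein of the U7 machinery, at 0.15 (0.08 and not called in control). Under both rescalings the paused calls of Slbp, Lsm10, Lsm11 and Ncbp1 were lost, and those of Cpsf2 and Ncbp2 held.

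Turnover factors, which break histone mRNA down when DNA synthesis stops, gave 3 of 17 higher and 9 lower in control cells and 4 higher and 7 lower in paused cells. The backgrounds are 19.5% higher and 21.9% lower in control and 20.5% and 22% in paused cells, so the higher counts are near them. After recentring these were 4 and 6, and 4 and 4. Of the 7 genes of the Lsm rings in the list, 6 fell in control and 5 in paused cells, with Lsm6 at -0.35 and -0.19 (its paused call is lost after recentring), Lsm7 at -0.30 and -0.28 and Lsm1 at -0.26 and -0.19. The control call of Lsm5 and the paused call of Lsm4 are also lost after recentring. The kinase gene Smg1 rose, at 0.34 and 0.23, as did the uridylyltransferase gene Zcchc11, at 0.16 and 0.26, and the checkpoint kinase gene Atr, at 0.20 and 0.21. The exonuclease gene Xrn1 fell, at -0.16 and -0.21, though its control call is lost after either rescaling.

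Regulators of histone transcription and S-phase entry were mixed, with 3 of 20 higher and 6 lower in control and 4 and 5 in paused cells, near the backgrounds of 19.5% and 21.9% and of 20.5% and 22%. After recentring the counts were 5 and 6 in control and 7 and 4 in paused cells. Ccne1, which codes for the cyclin that drives S-phase entry, had -0.36 (SE 0.08) and -0.34 (SE 0.06). Among E2F genes, E2f2 rose in both, at 0.41 and 0.50, and E2f1 rose in paused cells, at 0.15 (0.19 and not called in control), while E2f3 had -0.28 and -0.33, E2f4 -0.43 and -0.25 and E2f6 -0.33 and -0.16, all called, with the paused call of E2f6 lost under both rescalings. Myb, a regulator of proliferation at a mean of 239 in control cells, had -0.76 and -0.64. Of 24 DNA replication genes 1 rose and 5 fell in control and 0 and 5 in paused cells, where the falling counts are near the backgrounds of 21.9% and 22%, with the control split turning to 5 and 2 after either rescaling and the paused one to 3 and 4 after recentring. Pcna, the sliding clamp, had -0.16 and -0.29.

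Most histone variants that are made outside S phase come from ordinary polyadenylated mRNAs, although H2afx, which is in the list, is known to make a stem-loop form too. The 11 variant genes summed to 2268 ppm in the control and 1892 ppm in the paused table, against 734 and 630 ppm for the histone cluster. Of these 1 rose and 2 fell in control cells and 3 rose and 4 fell in paused cells, against backgrounds of 19.5% and 21.9% and of 20.5% and 22%. After recentring these were 1 and 1, and 4 and 4. The difference between conditions was called for 2 of 11, against 1.44% of all genes: H1f0, a linker histone of resting cells, at 0.41 (SE 0.10, adjusted p = 0.008) with 0.08 in control and 0.49 in paused cells, and H3f3b, which codes for H3.3, at 0.23 (SE 0.05, adjusted p = 0.004) with -0.12 and 0.11, the control call of H3f3b being lost under both rescalings. H2afz fell in both, at -0.27 and -0.29. Histone chaperone and import genes gave 1 of 25 higher and 11 lower in control, against 19.5% and 21.9% of all genes, and 2 and 5 in paused cells, where the falling count is near the background of 22%. After recentring these were 2 and 7, and 3 and 3. Hira, a chaperone of H3.3, had -0.30 and -0.31, and Ssrp1, a subunit of the FACT complex, -0.26 and -0.23. The difference was called for Nap1l1, a carrier of H2A and H2B, at 0.26 (SE 0.07, adjusted p = 0.028), and for Daxx, another chaperone of H3.3, at 0.21 (SE 0.06, adjusted p = 0.024). Both of these calls were lost with equal summed counts, where the differences were 0.24 and 0.19.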

How the data were processed

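Directional poly(A) RNA libraries of 24 E14 samples, 4 per genotype and treatment, were grouped by their titles; the labels' protocols give 50000 live cells for each. Per the submitters' processing notes, the authors used FastQC, Trim Galore, HISAT2, featureCounts and DESeq2 with build mm10. Their versions and settings, and which knockout lines each comparison used, are not given in the sources used here.

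The authors deposited 1 results table per condition, with 19780 genes for control and 19979 for paused cells. Per the file headers, these give a mean normalized read count, which is a signal value averaged by the authors, a log2 change with its SE, a test statistic, which is a score, and a p-value with its adjusted p-value. The statistic equalled change over SE, and the adjusted values were Benjamini-Hochberg over all genes, to under 1% (2 control genes have no p). Genes with mean counts near 0 are missing: the lowest means are 2.22 and 3.19. The deposited tests were used in place of tests on counts, which need values per library.

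The members and gene lists were chosen with earlier results of these data known. Levels are mean counts per kilobase of annotated exon, or ppm of each table's summed means. The test of the difference used the root of the summed squared SEs and a two-sided normal p, adjusted over 19134 genes. On simulated data it recovered 70% of 200 true 2-fold differences, and 4.11% of its calls were false. The simulated errors were normal with the deposited SEs, so this cannot show how well those SEs measure the real spread. Genes were named by a rule: per table at most 10 called members in each direction, the highest member of each class, and at most 5 called genes per list; others were named after their values were seen. Gene models were GENCODE M21 and windows RefSeq GRCm38.p6, matched by older symbols and position. Words of 50 bases were compared across all transcripts. Alternatives were adjusted p under 0.01, at least 2-fold, a null of up to 1.2-fold, a minimum of 5 ppm, 2 rescalings, a rescaled statistic, and leaving out copies. Python 3.11.15 with numpy 2.4.6, scipy 1.17.1, pandas 2.3.3 and matplotlib 3.10.9 was used.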

Additional observations from a re-analysis of the deposited data

Results flagged for a closer look

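Of 116 genes of the pathway lists, 4 had a change between knockout and wild type that differed between the conditions by the normal test of the difference adjusted over all 19134 genes, which called 1.44% of them. The paused change exceeded the control change by 0.41 for H1f0, 0.23 for H3f3b, 0.26 for Nap1l1 and 0.21 for Daxx on the log2 scale. With equal summed counts the calls of Nap1l1 and Daxx were lost.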

How the results depend on the processing

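The called members numbered 6 in control and 11 in paused cells, and the share of all genes called by the same rule is given with each alternative. With at least 2-fold required both counts were 0 (all genes 6.98% and 7.1%), and with the statistic scaled so that its median size over all genes was that of a standard normal both were 0 (1.48% and 2.25%). Against a null of up to 1.2-fold, the test left 2 (Hist1h2bg and Hist1h2bc) in control and 0 in paused cells (10.6% in each). Adjusting over genes of at least 5 ppm alone left 1 of 14 and 2 of 15 (51.6% and 53% of such genes). In paused cells an adjusted p under 0.01 left 4 (32.3%), recentring on genes above 5 ppm gave 21 (40.9%) and equal summed counts 19 (41.1%), with all 11 among them, below the share of all genes called in either direction, although the members' calls were all upwards and 24.9% and 23.7% of all genes were called higher. The median paused change of 0.24 turned to -0.068 over the 15 members of at least 5 ppm. Of these 15, 13 are H2A genes, a class with a median paused change of -0.08. Both rescalings move all changes upwards by a fixed amount. Beyond this, the cause of these shifts was not tested. In control cells 5 members passed an adjusted p under 0.01 (30.9%) and 9 passed under each rescaling (39.7% and 39.8%). The difference between conditions gave 0 called members with the normal test under each of the 10 alternatives run, and over all genes the 7 of these that change the rule gave 0.0105% to 2.93%. Only the 5 ppm minimum and the 2 rescalings could have added a call to the main count of 0. The other alternatives were stricter or only left out members, so their 0 was fixed in advance. Among members with at least 50% of their words unique, chosen after seeing the data, 5 of 32 were called in control and 8 of 33 in paused cells, against 41.4% and 42.6% of all genes. All of these calls were higher, at 15.6% and 24.2%, against 19.5% and 20.5% of all genes called higher. The 6 pathway lists, with 3 to 12 called genes per list and table, had 0 with at least 2-fold, 0 with the scaled statistic and 0 to 2 with the 1.2-fold null.

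Leaving out a replicate was not run, since it needs values per library. No paired analysis was possible because the tables hold no values per library. Depth is unknown.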
